A study of Mus musculus with 6 samples.

Results

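The lambda light chain genes of the mouse were examined in RNA from ovarian tumors, as the rows of the deposited table whose symbol begins with Iglc, Iglv or Iglj followed by a digit. This rule found 7 of the 20076 genes in the table: 3 constant genes (*Iglc1*, *Iglc2* and *Iglc3*), 3 variable genes (*Iglv1*, *Iglv2* and *Iglv3*) and 1 joining gene (*Iglj1*). Poly(A)-enriched RNA of whole primary tumors was sequenced, from 3 WT and 3 *Tgm2* knockout mice. All 6 tumors grew from the same ID8 *Trp53-/- Brca1-/-* cells, an ovarian cancer line of the mouse that lacks both of those tumor suppressors, placed inside the ovarian bursa and collected 6 weeks later. The hosts were C57BL/6 mice for the WT group and mice lacking *Tgm2*, which encodes the cross-linking enzyme tissue transglutaminase, for the knockout group, aged 6 to 10 weeks when used. The knockout is in the host and not in the injected cells, so *Tgm2* RNA can come from the cancer cells in both groups. The labels name the RNA as that of cancer cells, but whole tumors were extracted, and the epithelial markers *Wt1*, *Krt8* and *Krt19* as well as leukocyte markers were present in all 6 tumors.

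An antibody is built from heavy chains and light chains, and each B cell uses a light chain of either the kappa or the lambda type. A light chain gene is assembled in the developing B cell by joining a variable segment to a joining segment, and the transcript is then spliced to a constant gene. Mice have few lambda genes and use lambda in a small minority of antibodies, whereas their kappa locus, with the single constant gene *Igkc* and many variable genes, provides most light chains. Plasma cells, the antibody-secreting end stage of B cells, hold by far the most light chain RNA per cell. In bulk RNA, more cells of a type and more RNA per cell cannot be told apart.

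The lambda locus lies on the minus strand of chromosome 16. In the GENCODE M21 annotation of GRCm38, the direction of transcription begins with *Iglv2* (chr16:19260401-19260859) and *Iglv3* (chr16:19241207-19241690), followed by *Iglc2* (chr16:19198396-19200351), *Iglv1* (chr16:19085017-19085500), *Iglc3* (chr16:19065230-19065681), *Iglj1* (chr16:19063225-19063262) and *Iglc1* (chr16:19061618-19062071). Of the 12 lambda genes annotated there, the other 5 (*Iglj2*, *Iglj3*, *Iglj3p*, *Iglj4* and *Iglc4*) were not analysed here. The first 90 bases of the constant exon are shown for the 3 constant genes, because the resemblance between them decides how safely a read can be given to one gene. Capitals mark the 21 positions at which the 3 sequences are not all the same, and each stretch is part of an exon (*Iglc1* chr16:19061982-19062071, *Iglc2* chr16:19198763-19198852, *Iglc3* chr16:19065592-19065681, GRCm38, minus strand, 5′ to 3′).
Iglc1: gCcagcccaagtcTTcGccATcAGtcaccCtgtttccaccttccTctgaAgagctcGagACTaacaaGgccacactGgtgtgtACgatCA
Iglc2: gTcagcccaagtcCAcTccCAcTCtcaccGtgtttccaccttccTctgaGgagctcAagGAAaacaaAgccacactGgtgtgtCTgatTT
Iglc3: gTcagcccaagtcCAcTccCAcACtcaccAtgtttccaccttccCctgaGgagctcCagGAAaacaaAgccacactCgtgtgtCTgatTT
Within this stretch *Iglc2* and *Iglc3* differed at 5 positions, while *Iglc1* differed from *Iglc2* at 19 and from *Iglc3* at 20. Over the whole coding sequence *Iglc2* and *Iglc3* were 96.2% identical, *Iglc1* was 73.4% identical to *Iglc2* and 74.5% identical to *Iglc3*, and each of the 3 was 53.9% identical to *Igkc*. Of the 31-base words in the transcripts of each gene, the unit by which the quantification tool assigns reads at its default setting, 0.236% of those of *Iglc1*, 19.6% of those of *Iglc2* and 40.8% of those of *Iglc3* also occurred in another gene. Levels of *Iglc1* and *Igkc* therefore rest almost wholly on sequence of their own, and the division of reads between *Iglc2* and *Iglc3* is uncertain. *Iglc3* also shares words with *2010309G21Rik*, an antisense gene that was not analysed here, and the sources used here do not state whether the quantification used strand.

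Among the variable genes, *Iglv1* and *Iglv2* formed the near-identical pair. The first 90 bases of the second exon are given with capitals at the 4 positions that differ (*Iglv1* chr16:19085232-19085321, *Iglv2* chr16:19260616-19260705, GRCm38, minus strand, 5′ to 3′).
Iglv1: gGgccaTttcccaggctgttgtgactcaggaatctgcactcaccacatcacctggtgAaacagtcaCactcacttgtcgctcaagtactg
Iglv2: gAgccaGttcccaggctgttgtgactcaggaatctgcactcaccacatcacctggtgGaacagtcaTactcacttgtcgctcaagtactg
Their coding sequences were 96.9% identical, and 36.8% of the 31-base words of *Iglv1* and 36.5% of those of *Iglv2* were shared, so the division of reads between this pair is uncertain as well, above all for the less abundant *Iglv2* and for each value derived from it. *Iglv3* was 55.7% identical to *Iglv1* and shared no word with another gene. The joining segment *Iglj1* is so short that it holds 8 such words, none of them shared, and it is shown whole in lower case (chr16:19063225-19063262, GRCm38, minus strand, 5′ to 3′).
Iglj1: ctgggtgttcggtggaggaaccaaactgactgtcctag

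The deposited values are normalized counts, estimated reads per gene divided by a factor for sequencing depth. Their totals lay between 32316613 and 37717165 per tumor. For genes with 1 annotated transcript, the median of the values between 0.5 and 1.5 was 0.944 to 1.09 in the 6 tumors. That window holds the median near 1 in advance, so the worth of 1 read in normalized counts was not measured. Differences between the groups were tested with limma on log2(value + 1) over the 19667 genes that reached a value of 1 in 3 or more tumors. A gene was called when its adjusted p was under 0.05 and its log2 fold change, knockout minus WT, was beyond 1 in size. *Tgm2* itself served as a check of the labels: the values were 14978, 12155 and 13180 in WT tumors 1 to 3, against 5853, 6071 and 8157 in knockout tumors 1 to 3. Every knockout tumor was below every WT tumor, with a log2 fold change of -1.02 (SE, the standard error, 0.22; limma adjusted p = 0.391).

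The 6 lambda genes that were detected in both groups had higher values in each of the 3 knockout tumors than in any WT tumor, as 5.18% of all genes tested did, with log2 fold changes between 2.70 and 5.84. None of the 7 lambda genes passed adjustment over all genes. The largest differences were those of *Iglc1* and its partner in recombination, *Iglv1*, with means of 27565 ± 23123 and 18503 ± 13529.6 normalized counts (SD, n = 3) in the knockout tumors and of 349.8 ± 207 and 332 ± 199.6 (SD, n = 3) in the WT tumors. The knockout tumors also differed strongly among themselves: tumors 1 and 2 held the bulk of the lambda RNA, and tumor 3 held far less.

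**Figure D1:**
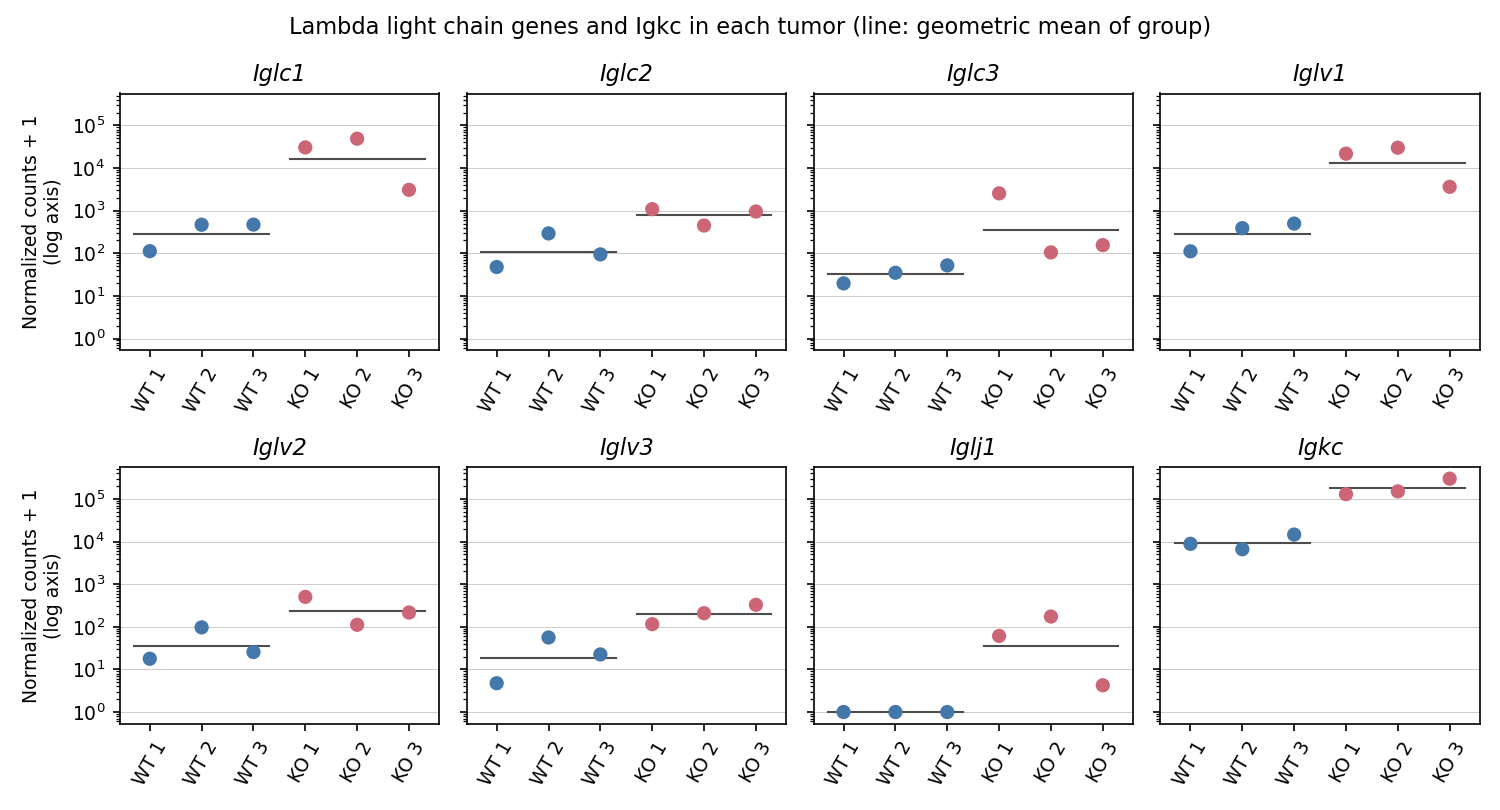
Normalized counts plus 1 (log axis) of the 7 lambda genes and *Igkc* in WT tumors 1 to 3 (blue) and *Tgm2* knockout tumors 1 to 3 (KO, red), with a line at the geometric mean of each group. In all 8 panels the red points lie above the blue ones, and for *Iglc1*, *Iglv1* and *Iglj1* knockout tumor 3 is the lowest red point, whereas for *Igkc* it is the highest.

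*Iglc1*, the constant gene of the most used mouse lambda chain, had 111, 468 and 471 normalized counts in WT tumors 1 to 3, against 30562, 49045 and 3090.0 in knockout tumors 1 to 3. The groups did not overlap, yet knockout tumor 2 exceeded knockout tumor 3 by a factor of 15.9. The log2 fold change was 5.84 (SE 0.99, limma adjusted p = 0.179), a 57.2-fold difference on the log2(value + 1) scale.

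*Iglv1*, the variable gene that mainly recombines with the joining segment of *Iglc1*, had 110.3, 388 and 498 normalized counts in WT against 21791, 30085 and 3632 in the knockout tumors. Its order among the knockout tumors was that of *Iglc1*, with the highest value 8.28 times the lowest, and the log2 fold change was 5.58 (SE 0.82, limma adjusted p = 0.0894). Without knockout tumor 3, both genes passed both limits, *Iglc1* with a log2 fold change of 7.05 (limma adjusted p = 0.0102) and *Iglv1* with 6.52 (limma adjusted p = 0.0117). In that fit, 14 of all 19455 genes tested were called. Over all 16 alternative settings the adjusted p ranged from 0.0102 to 0.630 for *Iglc1* and from 0.0117 to 0.561 for *Iglv1*.

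*Iglj1*, the joining segment between them, had 60.1, 173 and 3.25 normalized counts in knockout tumors 1 to 3 and was listed at 0 in each of the WT tumors. Its order among the knockout tumors was again that of *Iglc1*. It passed the filter on low values only through the knockout tumors and so had to differ, and no fold change is given because all WT tumors are at 0.

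*Iglc2* showed a different order among the knockout tumors. It had 46.7, 292 and 93.4 normalized counts in WT against 1086, 448 and 955 in the knockout tumors, so that knockout tumor 2, the highest for *Iglc1*, was the lowest of the 3. The log2 fold change was 2.82 (SE 0.65, limma adjusted p = 0.470), and the highest knockout value was 2.43 times the lowest.

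*Iglc3*, the near-identical neighbour of *Iglc2* in sequence, had 18.7, 33.9 and 51.0 normalized counts in WT against 2554, 104 and 155 in the knockout tumors. Knockout tumor 1 stood apart at 24.6 times the lowest knockout tumor. The log2 fold change of 3.40 (SE 1.11, limma adjusted p = 0.727) was 1.96 without that tumor.

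*Iglv2* and *Iglv3*, the variable genes at the far end of the locus that recombine mainly towards *Iglc2*, had smaller log2 fold changes than *Iglv1*, and neither passed the test. *Iglv2* had 16.8, 96.0 and 24.6 normalized counts in WT against 503, 111 and 215 in the knockout tumors (log2 fold change 2.70, SE 0.78, limma adjusted p = 0.649). *Iglv3* had 3.74, 55.2 and 21.5 in WT against 115, 208 and 327 in the knockout tumors (log2 fold change 3.46, SE 0.90, limma adjusted p = 0.589). For *Iglv3* alone among the 7 genes, knockout tumor 3 was the highest of all 6 tumors.

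Of the 7 lambda genes, 0 were called by limma, where 0.102% of all genes tested were called higher and 0% lower in the knockout tumors. *Iglj1* is left out of the further counts, since its outcome was fixed by the filter. At an unadjusted p under 0.05, the other 6 were all higher, against 3.4% of all genes, and 2.38% of all genes were lower. All 6 were without overlap between the groups in the direction of the knockout tumors, against 5.18% of all genes, while 5.33% of all genes were without overlap and lower. Their median log2 fold change was 3.43, against -0.03 over all genes tested. A two-sided exact permutation test over the tumors gave p = 0.1 for each of the 6, the smallest p that 3 tumors against 3 can reach. Groups of 3 without overlap must give this p, so the test adds nothing to that count. By size of the log2 fold change, *Iglc1* ranked 11 and *Iglv1* ranked 15 among the 19667 genes, above *Igkc* at rank 41, while *Iglv3*, *Iglc3*, *Iglc2* and *Iglv2* ranked 87, 92, 148 and 176.

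**Figure D2:**
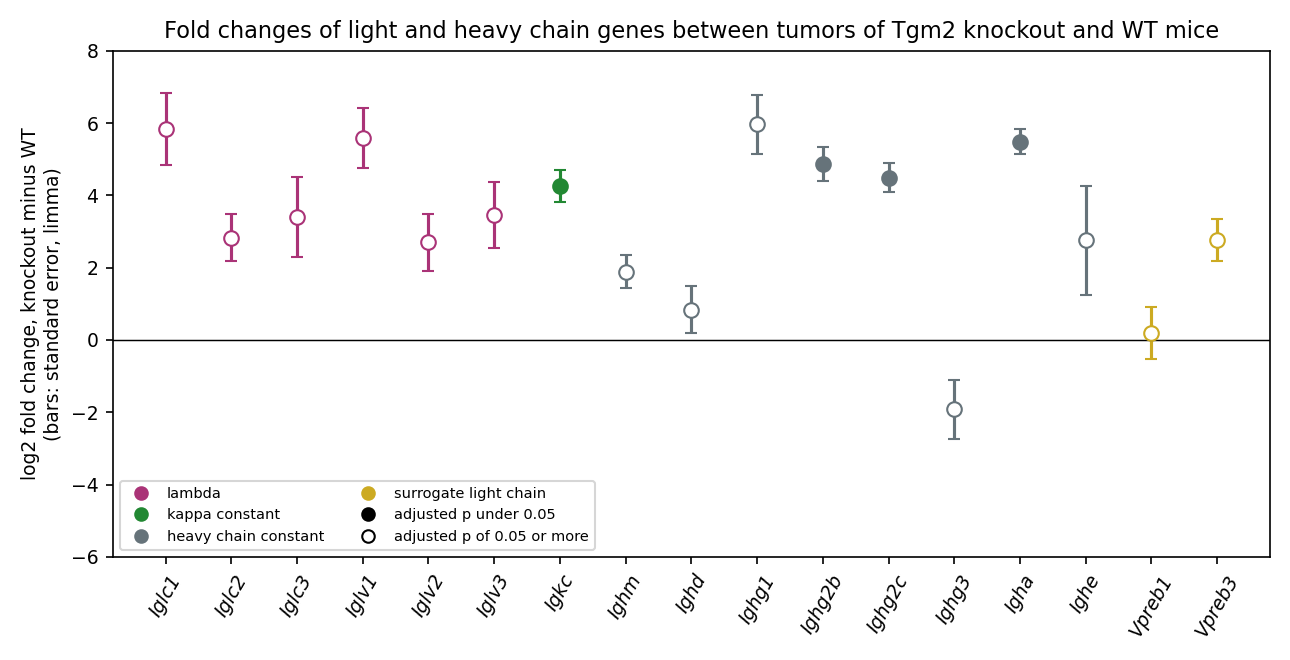
Log2 fold change, knockout minus WT, with its standard error from limma, for lambda genes (magenta), *Igkc* (green), heavy chain constant genes (grey) and surrogate light chain genes (yellow), with filled points for an adjusted p under 0.05. *Iglc1* and *Iglv1* lie above the filled point of *Igkc* but have wider bars and are open. *Iglj1* is not plotted, because all its WT values are 0.

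The kappa reference *Igkc* (chr6:70726435-70726966, plus strand) had 8870, 6618 and 14622 normalized counts in WT against 129652, 151166 and 300054 in the knockout tumors. Its log2 fold change of 4.25 (SE 0.44, limma adjusted p = 0.0143) was smaller than that of *Iglc1*, but its standard error was less than that of any lambda gene. *Igkc* was called in 10 of the 16 alternative settings, with adjusted p between 0.00627 and 0.552. The 6 settings that lost the call kept log2 fold changes between 3.99 and 4.38, namely without WT tumor 1 (limma adjusted p = 0.116), WT tumor 2 (0.180), knockout tumor 2 (0.0547) or the variance trend (0.0767), with the replicate number as a block (0.0525), and with the adipocyte markers as a covariate (0.552). Knockout tumor 3, the highest for *Igkc*, was the lowest of the knockout tumors for *Iglc1*, *Iglv1* and *Iglj1* but not for the other 4 lambda genes.

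The spread of the lambda genes within the knockout group was set beside that of other genes, a comparison added after the values were seen. Among 14092 genes with a mean of at least 50 normalized counts, 2.38% had a log2 range within the knockout group as large as the 3.99 of *Iglc1*, 3.80% as large as the 3.05 of *Iglv1*, and 1.89% as large as the 4.61 of *Iglc3*. The range was 2.18 for *Iglv2*, which 6.18% of genes reached, 1.51 for *Iglv3* (10.7%), 1.28 for *Iglc2* (13.9%) and 1.21 for *Igkc* (15.0%).

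Summed over *Iglc1*, *Iglc2* and *Iglc3*, which removes the uncertain division of reads between the last pair, the lambda constant genes had 177, 793 and 615 normalized counts in WT tumors 1 to 3, against 34202, 49596 and 4199.8 in knockout tumors 1 to 3. The mean log2 difference was 5.44, and the highest knockout tumor exceeded the lowest by a factor of 11.8. The sum of the 3 variable genes, which come from separate exons, gave 131, 540 and 544 in WT against 22409, 30403 and 4175 in the knockout tumors, with a mean log2 difference of 5.39. Together the lambda rows took 0.0222% of all normalized counts in knockout tumor 3, against 0.175% and 0.224% in knockout tumors 1 and 2, and at most 0.00377% in a WT tumor.

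The comparison of lambda with kappa asks whether both light chain types differed between the genotypes by the same factor. On the log2 scale the ratio of the lambda constant sum to *Igkc* was -5.64, -3.06 and -4.57 in WT tumors 1 to 3, against -1.92, -1.61 and -6.16 in knockout tumors 1 to 3. Knockout tumors 1 and 2 had the 2 highest ratios of the 6 tumors and knockout tumor 3 the lowest, so the groups overlapped. Divided by transcript length, lambda made up 2.28%, 12.3% and 4.69% of the light chain constant level in WT against 23.6%, 27.8% and 1.61% in the knockout tumors. The length was the full annotated one of 1 transcript per gene, here and in the later shares and ratios. The size of these values depends on that choice. The low share of knockout tumor 3 rests on 4199.8 lambda normalized counts against 300054 of *Igkc*. A share within a tumor does not depend on library depth.

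**Figure D3:**
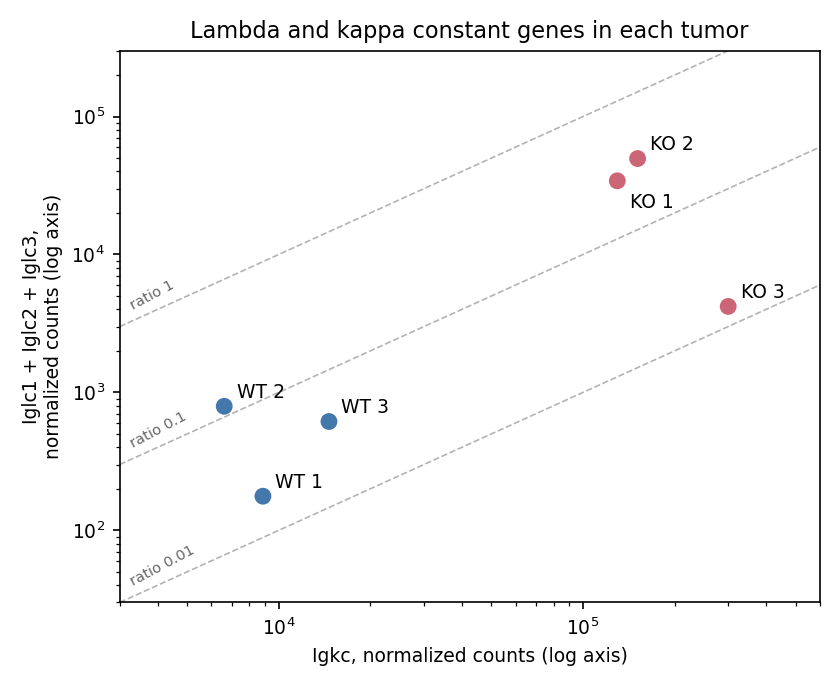
The lambda constant sum against *Igkc* in each tumor, both in normalized counts on log axes, with dashed lines where lambda is 0.01, 0.1 and 1 times kappa. Knockout tumors 1 and 2 lie between the lines for 0.1 and 1, and knockout tumor 3 lies near the line for 0.01 with the highest *Igkc* of all.

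For single constant genes the difference in the log2 ratio to *Igkc* between the groups was 1.59 for *Iglc1*, -1.43 for *Iglc2* and -0.85 for *Iglc3*. The groups overlapped for each of the 3 genes, and a two-sided exact permutation test gave p = 0.4, 0.3 and 0.7 (Benjamini-Hochberg adjusted over the 3 genes, 0.6, 0.6 and 0.7). The difference was positive for *Iglc1* and negative for the other two.

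Within lambda, *Iglc1* had the highest level per transcript length of the 3 constant genes in all 6 tumors, and *Iglc2* was above *Iglc3* in 5 of 6. Per kb of transcript, *Iglc1* stood at 245, 1029.9 and 1036 normalized counts in WT and at 67317, 108028 and 6806 in the knockout tumors. It made up 63.1%, 59.1% and 76.6% of the lambda constant level in WT against 89.4%, 98.9% and 73.7% in the knockout tumors, so that the groups overlapped through knockout tumor 3. *Iglc2* contributed 26.3%, 36.6% and 15.1% in WT against 3.15%, 0.895% and 22.6% in the knockout tumors. The exception in order was knockout tumor 1, in which *Iglc3* provided 7.50% of the level and *Iglc2* 3.15%.

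**Figure D4:**
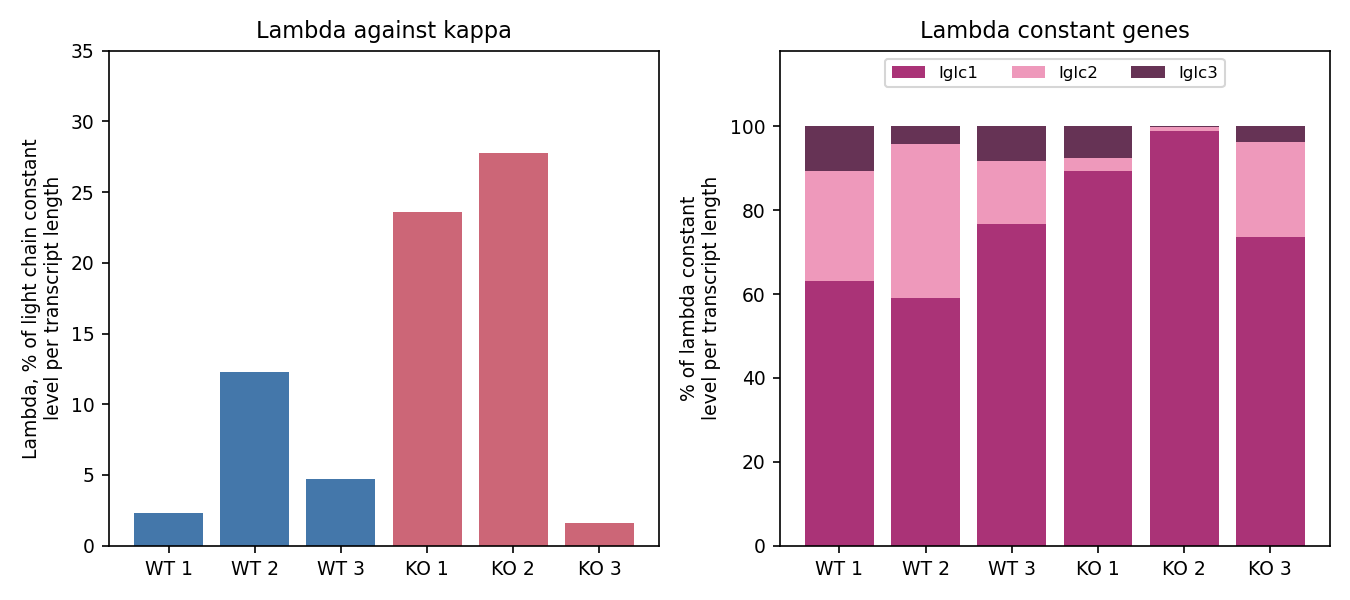
Left, lambda constant level per transcript length as a percentage of lambda plus *Igkc* in each tumor; right, the shares of *Iglc1*, *Iglc2* and *Iglc3* in the lambda constant level per transcript length. Lambda reached 23.6% and 27.8% in knockout tumors 1 and 2, the same tumors in which *Iglc1* made up 89.4% and 98.9% of lambda, and was 1.61% in knockout tumor 3.

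The ratio of each variable gene to the constant gene it mainly recombines towards was taken per transcript length. For *Iglv1* to *Iglc1* it was 1.15, 0.965 and 1.23 in WT against 0.828, 0.712 and 1.36 in the knockout tumors, a 1.92-fold span within the knockout group, where *Iglc1* itself spanned 15.9-fold. The ratio of *Iglv2* to *Iglc2* was 0.451, 0.412 and 0.329 in WT against 0.580, 0.309 and 0.282 in the knockout tumors, a 2.05-fold span within the knockout group, close to the 2.43-fold span of *Iglc2* itself. The ratio of *Iglv3* to *Iglc2* ran from 0.0963 in WT tumor 1 to 0.558 in knockout tumor 2. *Iglv1* was the highest variable gene per transcript length in all 6 tumors, and *Iglv2* was above *Iglv3* in 4 of 6, the exceptions being knockout tumors 2 and 3.

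**Figure D5:**
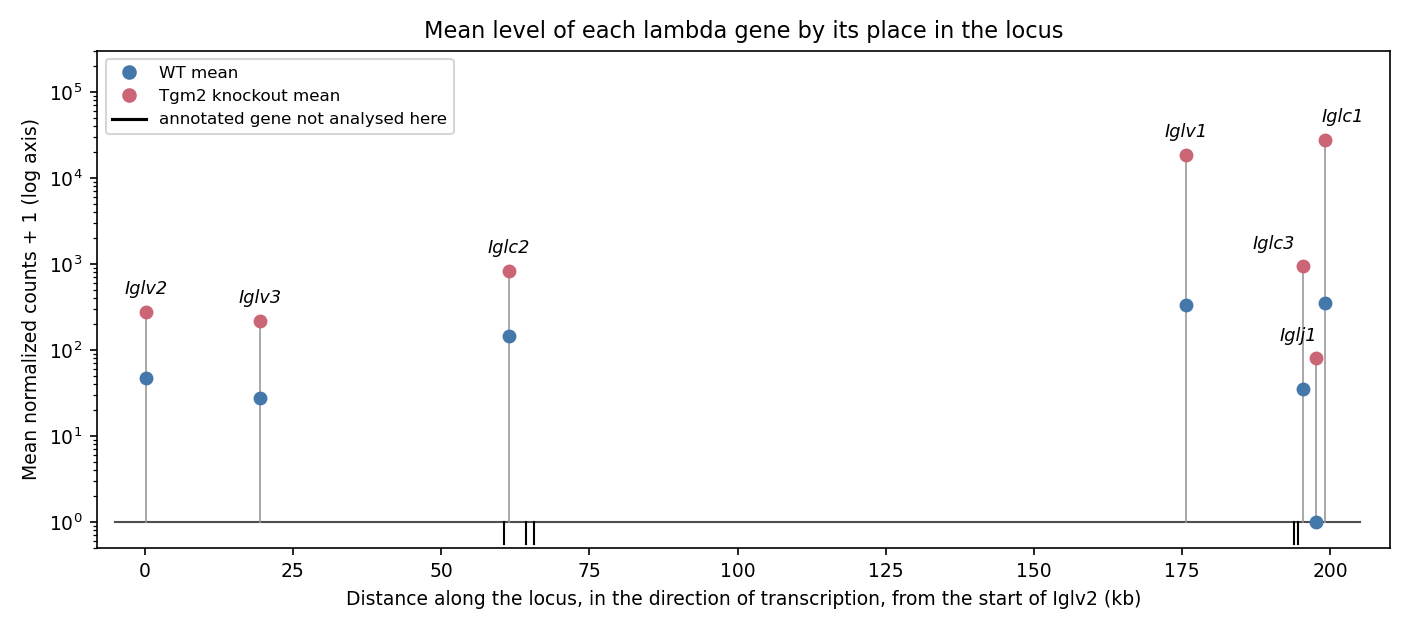
Mean normalized counts plus 1 (log axis) of each lambda gene in WT (blue) and knockout (red) tumors, placed by distance in kb from the start of *Iglv2* in the direction of transcription, with black ticks for annotated genes that were not analysed here. The highest knockout means are those of *Iglv1* and *Iglc1* at the downstream end, and the genes of the upstream end, *Iglv2*, *Iglv3* and *Iglc2*, all have knockout means of at most 830 normalized counts.

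Light chains pair with heavy chains, and the heavy chain constant genes, which set the antibody class, were read in the same tumors. Of 8 tested, 3 were called higher in the knockout tumors, namely *Ighg2b*, *Ighg2c* and *Igha*, against 0.102% of all genes, and 0 lower. *Igha*, the IgA heavy chain, had 4495, 5408 and 6483 normalized counts in WT against 192147, 197269 and 373965 in the knockout tumors, and was highest in knockout tumor 3 as *Igkc* was. *Ighg1* had 161, 115 and 806 in WT against 43621, 12130 and 6936 in the knockout tumors, with the same lowest knockout tumor as *Iglc1* but another highest one. *Ighe*, the IgE heavy chain, was listed at 0, 0 and 3.10 in WT and at 138, 2.00 and 2.04 in the knockout tumors. Knockout tumor 1, which stood apart for *Iglc3*, was thus also the highest tumor for *Ighg1* and *Ighe*. For the other heavy chain constant genes it was not the highest of its group. It was the lowest knockout tumor for *Ighm*, *Ighg2c* and *Igha*, and lay between the others for *Ighd*, *Ighg2b* and *Ighg3*. *Ighg3* was the only heavy chain constant gene with a negative log2 fold change (-1.92, groups overlapping).

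The surrogate light chain, which stands in for kappa and lambda in B cell precursors, was represented by *Vpreb1* and *Vpreb3*, and its lambda-like component *Igll1* was not analysed here. *Vpreb1* stayed between 4.24 and 14.4 normalized counts in all 6 tumors, with overlapping groups. *Vpreb3*, a molecule of the B cell lineage that shares the family name, had 14.1, 55.4 and 30.1 in WT against 200.2, 266 and 156 in the knockout tumors (log2 fold change 2.77, limma adjusted p = 0.373). Its highest and lowest knockout tumors were those of *Iglc1*. Of 7 genes for light chain rearrangement that were tested, 0 were called by limma, 0 had an unadjusted p under 0.05 in either direction, and their median log2 fold change was 0.10. With 3.4% of all genes higher and 2.38% lower at that limit, 0 of 7 is near the background. *Rag2*, a subunit of the recombinase, did not exceed 19.2 normalized counts in any tumor. Of 9 factors that act on light chain enhancers, 1 was called, against 0.102% of all genes: *Pou2af1*, a coactivator of immunoglobulin genes, rose from 68.2, 30.2 and 102 to 681, 708 and 1149 normalized counts (log2 fold change 3.76, limma adjusted p = 0.0439). *Irf4*, a factor of activated B cells and plasma cells that was picked after its values were seen, had 106, 35.6 and 95.6 in WT against 499, 310.5 and 575 in the knockout tumors, without overlap (log2 fold change 2.63, SE 0.50, limma adjusted p = 0.264). The other 7 factors, among them *Tcf12*, *Tcf3* and *Irf8*, the most abundant, had overlapping groups.

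Of 13 plasma cell markers tested, 12 had a positive log2 fold change, 2 were called higher (*Jchain* and *Mzb1*), against 0.102% of all genes, 11 were without overlap and higher in the knockout tumors, against 5.18% of all genes, and their median log2 fold change was 1.65. The sum of their values was 16748, 18731 and 13639 in WT against 60705, 84359 and 88405 in the knockout tumors. *Jchain*, which links antibody molecules and was the most abundant of them, had 1461, 2231 and 2511 in WT against 42273, 62782 and 67245 in the knockout tumors, a range of 1.59-fold within the knockout group against 15.9-fold for *Iglc1*. *Sdc1*, a surface marker of plasma cells that epithelial cells also express, overlapped between the groups and had a log2 fold change of -0.13. Of 20 B cell markers, 1 was called (*Cd79a*; 0.102% of all genes) and 10 were without overlap and higher in the knockout tumors (5.18% of all genes), with a median log2 fold change of 0.84 and summed values of 7151, 4870 and 5191 in WT against 7351, 8013 and 10933 in the knockout tumors. The most abundant B cell marker was *Ciita*, which other antigen-presenting cells also express. Knockout tumor 3 had the highest B cell and plasma cell sums of the 6 tumors and the lowest lambda level of its group. Of 18 genes for antibody assembly and secretion 0 were called by limma, 8 had an unadjusted p under 0.05 and were higher, and 7 were without overlap, against 3.4% and 5.18% of all genes. The chaperone *Hsp90b1* was one of these, and *Hspa5* and *P4hb* were not. The part of B cell and plasma cell number in the lambda difference was not tested.

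Other tissues in the tumor pieces were followed through their markers. White adipocyte markers were higher in the knockout tumors without overlap for 13 of 20 genes (5.18% of all genes) and at an unadjusted p under 0.05 for 17 (3.4% of all genes), with 1 called (*Lep*; 0.102% of all genes) and a median log2 fold change of 1.73. Their sums were 59731, 75557 and 46939 in WT against 71739, 268485 and 158707 in the knockout tumors, with *Lpl* the most abundant. Among the knockout tumors the sum was lowest in tumor 1, whose lambda level was high. Of 14 T cell markers 0 were called by limma, 2 had an unadjusted p under 0.05 (3.4% of all genes), 4 were without overlap and higher (5.18% of all genes), all 14 had a positive log2 fold change with a median of 0.85, and the sums, led by *Thy1*, overlapped. The sums of general leukocyte, lymphoid stroma and gut epithelium markers overlapped too, with 8, 10 and 7 genes tested and median log2 fold changes of 0.48, -0.05 and -1.39. In these lists limma called 0 genes, and 1 leukocyte gene was higher and 1 gut gene lower at an unadjusted p under 0.05, against 3.4% higher and 2.38% lower of all genes. No overlap between the groups was seen for 1 leukocyte, 1 stroma and 0 gut genes, all higher in the knockout tumors, against 5.18% of all genes. Tumor and ovarian epithelium markers summed to 70929, 83081 and 77814 in WT against 62671, 59472 and 68992 in the knockout tumors, so that every knockout tumor was lower. Of these 9 markers, 0 were called by limma, 0 had an unadjusted p under 0.05 in either direction (3.4% higher and 2.38% lower of all genes), and 2, *Krt8* and *Krt19*, were without overlap and lower in the knockout tumors (5.33% of all genes). The most abundant marker, *Wt1*, had overlapping groups and a log2 fold change of 0.11. Among the gut markers in the knockout tumors, *Fabp2* did not exceed 2.95 normalized counts, while *Lgals4* reached 156, *Krt20* 72.0 and *Vil1* 55.5 in tumor 1, and *Cdh17* 39.4 in tumor 3. The gut epithelium sum was led by *Pigr* and was high in WT tumor 3 alone, at 10018 against 571 or less in the other 5 tumors. WT tumor 3 was also the highest for the epithelial markers *Epcam* and *Pax8*. *Epcam* had 90.5, 959 and 8047 normalized counts in WT against 1307, 1063 and 201.2 in the knockout tumors. *Pax8* had 40.9, 169 and 1905 in WT against 437, 380.3 and 122 in the knockout tumors. The other tumor and ovarian epithelium markers were divided. *Krt7*, *Krt18* and *Msln* were highest in WT tumor 3, and *Krt8* and *Krt19* were highest in WT tumor 2. *Wt1* and *Upk3b* were lowest in WT tumor 3, at 13131 and 2805. With the mean of the adipocyte markers as a covariate, the log2 fold changes were 5.18 (SE 2.09) for *Iglc1*, 5.19 (SE 1.73) for *Iglv1*, 3.19 (SE 1.37) for *Iglc2* and 4.30 (SE 0.90) for *Igkc*, against SEs of 0.99, 0.82, 0.65 and 0.44 without it. In the same fit they were 7.84 (SE 1.39) for *Iglc3*, 3.90 (SE 1.57) for *Iglv2* and 1.73 (SE 1.76) for *Iglv3*, and 0 of the 19667 genes were called, lambda genes among them. The part of these tissues in the lambda difference was not tested.

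By the root mean square difference of centred log2 values over the 6 tumors, the genes whose pattern was nearest to that of the lambda constant sum, among 19660 compared, were *Trp73* (0.79), *Spag17* (1.001), *Ighj3* (1.07), *Ighj2* (1.08) and *Pnpla3* (1.13). This is a description without a test, and all 5 were less abundant than *Iglc1*. *Trp73*, a relative of the p53 gene, had 0, 5.71 and 2.05 normalized counts in WT against 90.8, 86.0 and 28.5 in the knockout tumors. *Ighj3*, a heavy chain joining segment, had 9.01, 7.39 and 14.3 in WT against 432, 943 and 333 in the knockout tumors, with the order of *Iglc1* in the knockout group. *Jchain* came at rank 14 (1.35) and *Igkc* at rank 107 (1.75).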

How the data were processed

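According to the study's methods and the submitters' processing notes, paired reads were quantified with kallisto 0.46.2 (build GRCm38), summed to genes, filtered for low expression and normalized with DESeq2's size factors. The authors deposited normalized counts, handled here as a signal and not as TPM, the name on their label, because the column totals differ between tumors. The tests had been chosen for values other than whole counts and were kept. limma 3.58.1 in R 4.3.3, with a variance trend and no covariate, was fitted to log2(value + 1), which understates changes of low genes, with two-sided tests and Benjamini-Hochberg adjustment over 19667 genes. Python 3.11.15 with SciPy 1.17.1 gave sums, ratios and exact permutation tests. Positions, lengths and sequences came from GENCODE M21 transcripts and GRCm38. Alternatives changed the pseudocount, filter, scaling, variance model, weights, covariate and limits, added replicate numbers as a block, or left out each tumor. p-values measure the spread between these tumors; the labels do not say whether mice shared a litter or cage. Members and lists were chosen with earlier results of these data known. The genes named are the lambda genes, *Igkc*, *Tgm2*, surrogate light chain and heavy chain constant genes, the 3 most abundant of each list, where useful, and the 5 nearest patterns; further genes were picked once their values had been seen. The fit was tested on simulated data.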

Additional observations from a re-analysis of the deposited data

How the results depend on the processing

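The count of lambda genes called was 0 in all alternatives except those without 1 tumor, where it ranged from 0 to 2, with 2 (*Iglc1* and *Iglv1*) when knockout tumor 3 was left out. In that fit, 14 of all 19455 genes tested were called. Each of the 6 lambda genes other than *Iglj1* kept a positive log2 fold change wherever it was tested, from 5.06 to 7.05 for *Iglc1*, 4.92 to 6.52 for *Iglv1*, 2.22 to 3.53 for *Iglc2*, 1.96 to 7.84 for *Iglc3*, 2.14 to 3.90 for *Iglv2* and 1.73 to 4.27 for *Iglv3*. *Iglj1* could not be tested without a knockout tumor or with a filter of at least 10 in 3 tumors, and its fitted value depends on the pseudocount. The count of all genes called was 20. It became 5 with the replicate block, 4 without the variance trend and 0 with the adipocyte covariate. Without 1 tumor it lay between 2 and 14. It was 2 without WT tumor 2, 8 without WT tumor 1 and 13 without WT tumor 3. It was 11 without knockout tumor 1 or 2 and 14 without knockout tumor 3. The cause of these changes was not tested. Deviations of same-numbered tumors from their group means correlated at -0.20, 0.28 and -0.31 across genes. Deviations from a mean of 3 tumors depend on one another, so these values cannot decide whether the numbers pair the tumors. Under the replicate block the limma adjusted p of *Igkc* was 0.0525. The log2 difference of the lambda constant sum, 5.44, became 2.82 for *Iglc2* alone and 3.40 for *Iglc3* alone, and lay between 4.76 and 6.54 without 1 tumor. The difference in the log2 ratio of lambda to kappa, 1.19, was -1.43 for *Iglc2* alone and -0.85 for *Iglc3* alone, and lay between 0.38 and 2.66 without 1 tumor. With 3 tumors against 3, knockout tumor 3 decides the calls of *Iglc1* and *Iglv1*. The worth of 1 normalized count in reads was not measured. If it is about 1 read, the lowest values rest on few reads.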

Other observations

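The kappa variable and joining genes were counted after the values were seen, as the counterpart of the lambda genes. Of 76 kappa variable genes tested, 3 were called higher in the knockout tumors, against 0.102% of all genes, 17 were without overlap in that direction, against 5.18% of all genes, and the median log2 fold change was 1.51. Among the kappa variable genes, 33 were at 0 in at least 1 tumor. Any that passed the filter through the knockout tumors alone had to be higher without overlap, as *Iglj1* did. Such genes were not removed here, so these counts and the median cannot be weighed against all genes. The sum of the kappa variable genes went from 3789, 3035 and 7072 normalized counts (WT) to 62254, 73457 and 142227 (knockout), and knockout tumor 3 was the highest, as for *Igkc* and unlike the lambda sums. The 5 kappa joining genes summed to 26.6, 63.8 and 49.9 in the WT tumors and to 193, 603 and 119 in the knockout tumors, with tumor 3 the lowest of its group. Many kappa variable genes resemble each other closely, so their single values are uncertain.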
